A study of Mus musculus with 8 samples.

Results

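The genes described here are the long non-coding RNA genes of a table of 1329 genes measured in ascending aortas from mice of the genotype Fbn1 mgR/mgR. They were all rows of the table whose Ensembl identifier has a long non-coding gene type in GENCODE release M21, and there were 51 of them. By type, 17 were lincRNA (intergenic) genes, 18 antisense genes, 13 processed transcripts, 2 genes of a bidirectional promoter and 1 sense intronic gene. Long non-coding RNAs are transcripts that resemble messenger RNAs in being spliced and, in many cases, polyadenylated, but are not annotated with a protein. Some act in the nucleus on chromatin or on the transcription of a neighbouring gene, some are precursors of microRNAs or small nucleolar RNAs, and of many no function is known. In the vessel wall, Carmn is known as a smooth muscle transcript and H19 as an imprinted transcript that is abundant before birth.

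Fbn1 mgR/mgR mice under-express Fbn1, the gene of fibrillin-1, a microfibril protein that is mutated in Marfan syndrome. All 8 libraries came from such mice, so there was no library of normal mice. In the DT-061 group (4 libraries), 5 mg/kg of DT-061, a small molecule activator of protein phosphatase 2A, was given by mouth 2 times a day for 4 weeks from 5 weeks of age. The vehicle group (4 libraries) received the N,N-dimethylacetamide, Kolliphor HS-15 and water solution alone on the same schedule. The labels do not say whether each library came from a separate mouse, nor the sex of the mice, so the p-values reflect only how these libraries spread, in part perhaps for technical reasons. The comparison asks which long non-coding transcripts of the diseased aorta differed with the drug.

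The libraries held 14100000 to 22200000 fragments, to 3 significant digits, as recovered from the steps between low values. The values are FPKM, fragments per kilobase of transcript scaled by library size, which corrects for length, so levels can be compared between genes. The deposited name of the table says that its genes were significant between the groups, so no p-value here is independent evidence of a difference. The label of the tissue, ascending aorta with vascular cells, could be checked on 7 of 10 listed contractile genes, whose summed level was 16095 to 24364 FPKM with DT-061 and 8764 to 13913 with vehicle. All 7 rose. None of the 5 listed endothelial markers was analysed here. Listed markers of T and NK cells (8 of 10 in the table, 7 fell) summed to 2.19 to 8.17 FPKM with DT-061 and 6.16 to 74.9 with vehicle. Those of B and plasma cells (4 of 9, 4 fell) summed to 10.9 to 63.6 and 138 to 5493 FPKM. Those of monocytes and macrophages (2 of 9, 2 fell) summed to 2.92 to 15.1 and 16.9 to 95.0 FPKM, and those of neutrophils (3 of 5, 3 fell) to 0.569 to 2.46 and 1.46 to 24.8. Listed fibroblast (2 of 6), adipocyte (1 of 3) and proliferation (5 of 5) markers all fell. DT-061 library 3 had the highest contractile sum and the lowest T and NK cell, B and plasma cell, macrophage and neutrophil sums. It also had the lowest fibroblast (74.2 FPKM), adipocyte (72.4) and proliferation (6.16) sums. Among the vehicle libraries, vehicle library 4 had the lowest of the 4 immune sums and the lowest fibroblast (163 FPKM) and adipocyte (489) sums. Its proliferation sum (36.2 FPKM) was the highest. In bulk tissue, fewer cells of a type and less RNA per cell cannot be told apart.

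The sequences that follow are those that a reader needs for the genes below: the start regions of 3 members and the small RNAs that lie inside H19, Snhg15 and Snhg18. RefSeq promoter windows on GRCm38.p6 ran from 250 bases before to 50 bases after the start. Those of 34 of the 51 members were searched for motifs. Of these 34, 21 rose and 11 fell by the test described below. The windows of Carmn and 1010001N08Rik were left out beforehand, so nothing is known here of motifs in them. In the window of 0610009L18Rik (chr11:120348428-120348727, plus strand), which starts 136 bases from the cytoplasmic actin gene Actg1 on the other strand, capitals mark a CArG box. The CArG box is the element bound by serum response factor in promoters of contractile genes. It lay 102 to 93 bases before the start. In the windows of AW112010 (chr19:11050517-11050816, minus strand) and 9330175E14Rik (chr8:94435054-94435353, minus strand), capitals mark matches, on either strand, to a loose form of the NF-kB motif (GGGA, any 4 bases, then CC). The window of AW112010 follows the RefSeq start, which lies inside the span of the gene in GENCODE.
0610009L18Rik: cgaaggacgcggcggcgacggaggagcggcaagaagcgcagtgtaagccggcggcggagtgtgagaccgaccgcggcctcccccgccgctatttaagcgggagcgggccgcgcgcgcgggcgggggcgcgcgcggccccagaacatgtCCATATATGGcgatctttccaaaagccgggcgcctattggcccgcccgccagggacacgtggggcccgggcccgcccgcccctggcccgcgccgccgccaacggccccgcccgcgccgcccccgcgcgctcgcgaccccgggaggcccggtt
AW112010: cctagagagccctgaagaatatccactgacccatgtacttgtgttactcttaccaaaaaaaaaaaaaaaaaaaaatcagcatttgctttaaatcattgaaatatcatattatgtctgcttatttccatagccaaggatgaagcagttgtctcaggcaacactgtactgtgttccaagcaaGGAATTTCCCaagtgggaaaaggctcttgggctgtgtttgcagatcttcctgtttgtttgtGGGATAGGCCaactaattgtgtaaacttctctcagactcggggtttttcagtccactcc
9330175E14Rik: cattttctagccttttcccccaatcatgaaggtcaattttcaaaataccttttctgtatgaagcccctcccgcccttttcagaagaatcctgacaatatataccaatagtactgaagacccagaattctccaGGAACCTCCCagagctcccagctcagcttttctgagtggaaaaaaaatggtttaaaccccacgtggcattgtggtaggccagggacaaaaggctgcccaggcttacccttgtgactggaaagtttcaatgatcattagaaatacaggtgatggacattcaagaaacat
The CArG box was found in 1 of the 34 members, which rose, and in 1.63% of all 32851 windows of the same length. The loose NF-kB motif was found in 7 members, 4 that rose and 3 that fell, and in 20.7% of all windows. The interferon element core (GAAA, any 2 bases, then GAAA) was found in 2 members (1 fell and 1 did not pass) and in 3.44% of all windows, the STAT motif TTCNNNGAA in 3 members, which rose, and in 8.30%, and the E-box CACGTG in 4 members, 2 of each direction, and in 7.15%. All motifs were searched on both strands and may overlap one another. A match describes the letters of the window and not a bound site.

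H19 holds the microRNA gene Mir675, Snhg15 the small nucleolar RNA gene Snora9 and Snhg18 the gene Snord123, each on the same strand. For both mature forms of miR-675, from RefSeq on GRCm38.p6 (chr7:142577078-142577099 and chr7:142577112-142577133, minus strand), capitals mark the seed, bases 2 to 8. Their seeds differ. For the small nucleolar RNAs, from GENCODE on GRCm38, capitals mark box H and box ACA in Snora9 (chr11:6528033-6528165, minus strand) and box C and box D in Snord123 (chr15:32241853-32241923, minus strand), the short elements bound by the proteins of each class.
mmu-miR-675-3p: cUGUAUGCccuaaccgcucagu
mmu-miR-675-5p: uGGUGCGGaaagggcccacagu
Snora9: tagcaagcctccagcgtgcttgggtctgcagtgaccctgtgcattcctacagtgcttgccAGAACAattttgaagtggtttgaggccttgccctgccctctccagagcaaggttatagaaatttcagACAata
Snord123: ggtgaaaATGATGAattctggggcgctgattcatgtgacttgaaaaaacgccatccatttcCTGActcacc

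More long non-coding genes were higher than lower with DT-061. Higher group means on the log2 scale were found in 33 of the 51 genes and lower means in 18. Tested with limma on log2(FPKM + 1) across the whole table, with Benjamini-Hochberg adjustment over 1329 genes and a threshold of 0.05, 31 rose, 18 fell and 2 did not pass. Of all genes in the table, 95.4% passed (30.4% rose and 65.0% fell), so passing says little about these genes. The median log2 change of the 51 genes was 0.42, beside -0.58 in the whole table and -0.59 over the 1278 other genes. Lower values were found in 35.3% of the 51 genes, beside 68.5% of the other genes. In 42 genes the ranges of both groups were separate, 28 of them higher and 14 lower with DT-061. This was so of 78.3% of the whole table (30.1% higher and 48.2% lower). The map of levels by library shows the 51 genes in each library.

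**Figure D1:**
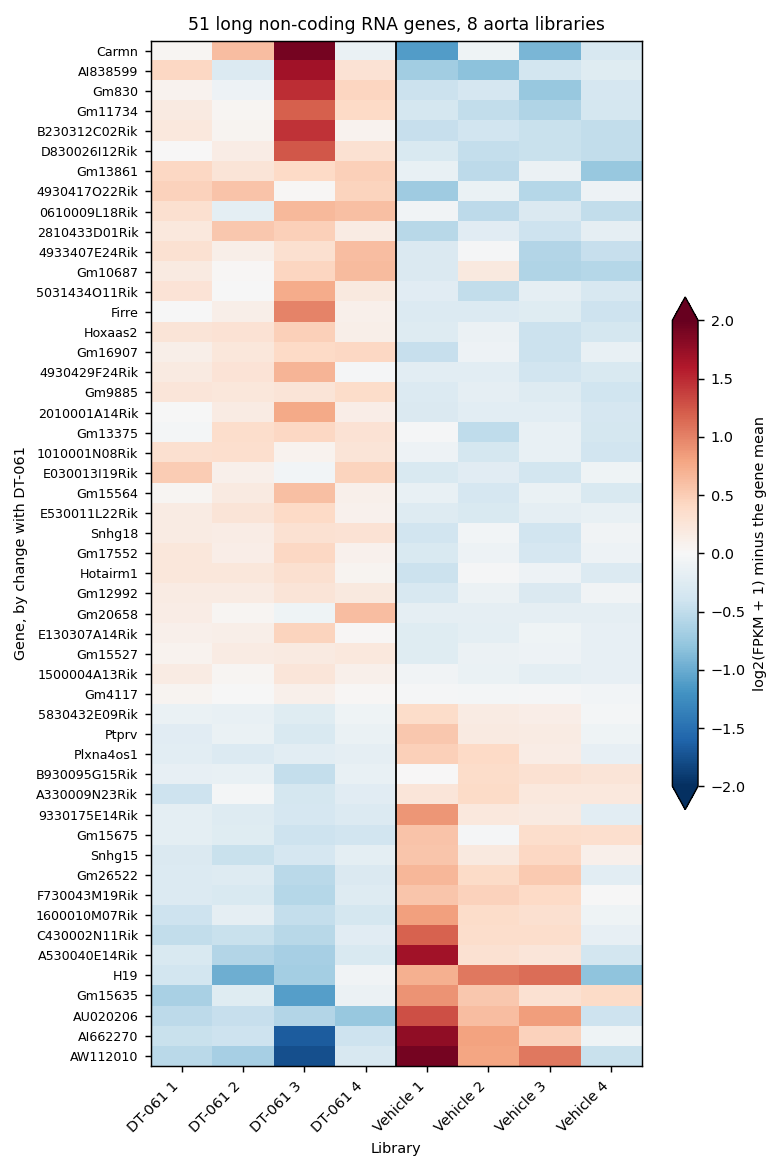
Heat map of log2(FPKM + 1) minus the mean of each gene, for 51 long non-coding RNA genes (rows, ordered by change) in 4 DT-061 and 4 vehicle libraries (columns); red is above and blue below the gene's mean. DT-061 library 3 was the highest DT-061 library in 20 of the 31 genes that rose, and vehicle library 4 the lowest vehicle library in 15 of the 18 that fell.

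The split of rises and falls depended on how the libraries were scaled. Rescaling every library to the same median over the table shifted the median change of all genes by 0.45. With it 32 of the 51 genes rose and 8 fell, so that rises were 80.0% of the calls, against 63.3% as deposited. In the whole table, rises went from 31.9% of the calls as deposited to 59.2%. Quantile normalization shifted the median by 0.64, and 32 genes then rose and 2 fell, so that rises were 94.1% of the calls, beside 65.2% in the whole table. The share of rises thus grew in the whole table too and not only in these genes. Every gene that rose as deposited stayed higher under both scalings. Both scalings shifted the median change of the 51 genes upward, by 0.69 and 0.45, so rises had little room to turn. That they stayed higher therefore says little about them. Of the 18 that fell, 1 turned to higher with the median rescaling and 11 with quantile normalization. Each scaling forces the libraries of a selected table to a common centre or a common distribution.

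**Figure D2:**
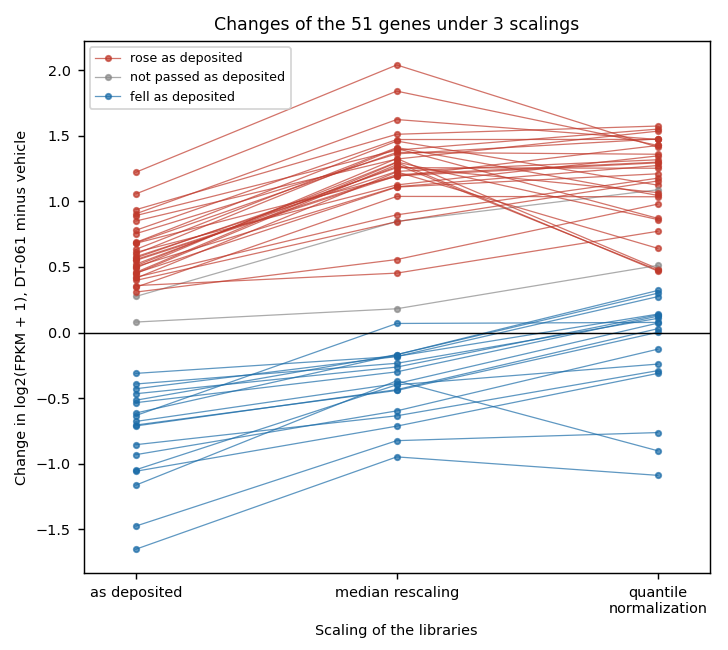
Change in log2(FPKM + 1), DT-061 minus vehicle, of each of the 51 genes (1 line each) as deposited, after median rescaling and after quantile normalization; colours give the outcome as deposited. The lines of the 31 genes that rose stay above 0, and 11 of the 18 lines of genes that fell end above 0 after quantile normalization.

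Direction differed by level among the 51 genes. Of the 38 genes with a mean of at least 1 FPKM over the 8 libraries, 29 rose, 8 fell and 1 did not pass. Of the 13 under 1 FPKM, 2 rose, 10 fell and 1 did not pass. In the whole table, 14 of the 228 genes under 1 FPKM rose and 188 fell, and of the 1101 genes of at least 1 FPKM, 390 rose and 676 fell, so falls were more frequent at both levels there. The median level of the 51 genes was 3.02 FPKM, and 5.45 FPKM was that of the whole table. The most abundant were Gm15564 (54.5 FPKM over all libraries), E030013I19Rik (50.9), Snhg18 (39.5) and Carmn (37.9), and all 4 rose. By type, 11 of 17 lincRNA genes rose and 6 fell, 11 of 18 antisense genes rose and 6 fell, and 8 of 13 processed transcripts rose and 4 fell. Of both bidirectional promoter genes, 0610009L18Rik rose and F730043M19Rik fell.

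**Figure D3:**
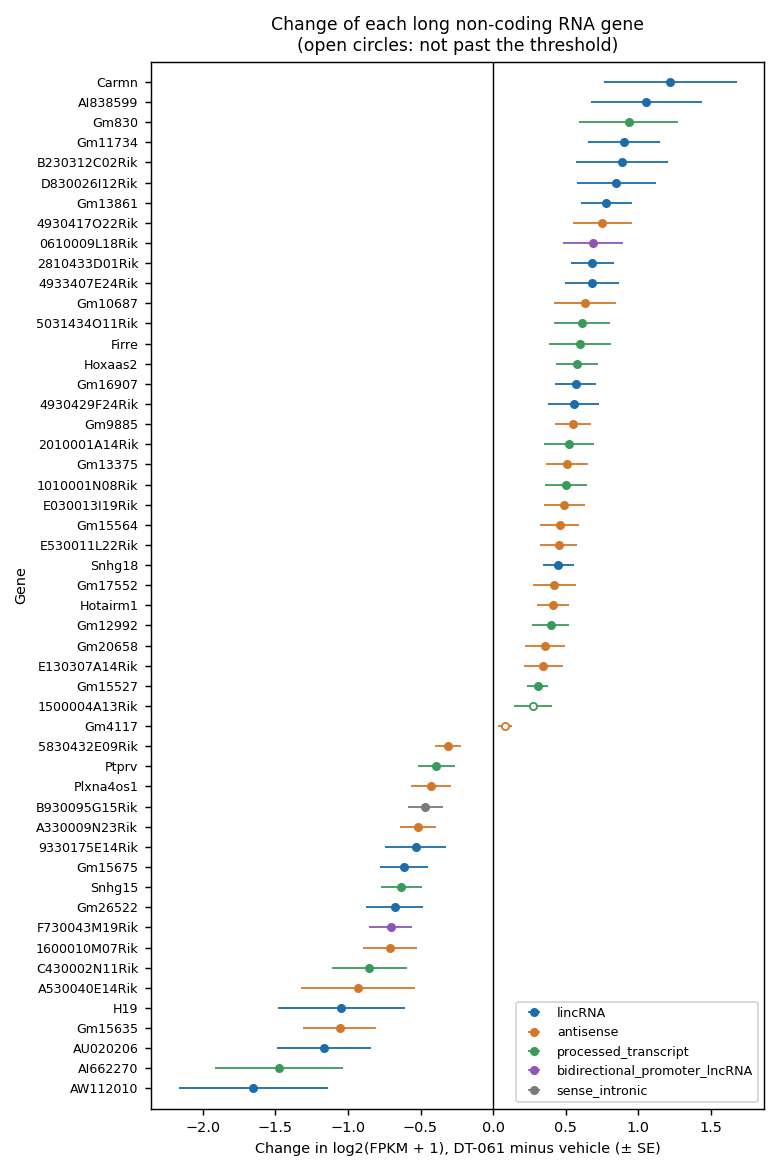
Change in log2(FPKM + 1), DT-061 minus vehicle, with its standard error (4 libraries per group), for the 51 genes ordered by change and coloured by GENCODE type; open circles did not pass the threshold. The changes run from -1.65 for AW112010 to 1.22 for Carmn, and every type with more than 2 genes lies on both sides of 0.

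Of a list of 88 names of well studied long non-coding RNAs, 67 are annotated as long non-coding genes in GENCODE M21. The list had 7 among the 51 genes: Carmn, Firre, Hotairm1, Hoxaas2 and Snhg18 rose, and H19 and Snhg15 fell. Carmn, the smooth muscle transcript next to the genes of the miR-143 and miR-145 cluster, had the largest rise on the log2(FPKM + 1) scale (ENSMUSG00000097324, GRCm38 chromosome 18, 61649625 to 61665537, minus strand). With DT-061 it stood at 31.1, 47.0, 116 and 27.4 FPKM in libraries 1 to 4, and with vehicle at 13.3, 28.2, 15.6 and 24.0. DT-061 library 3 was far above all others, and the groups overlapped, since DT-061 library 4 was below vehicle library 2. The means were 55.5 ± 41.5 and 20.3 ± 7.01 FPKM (SD, n = 4), a difference in log2 of 1.22 ± 0.46 (SE; adjusted p by limma = 0.032). As a ratio of means Carmn was 2.73-fold higher, less than B230312C02Rik (3.57-fold), D830026I12Rik (3.57-fold) and Gm830 (2.98-fold), which are lower in level. Without DT-061 library 3 the change of Carmn was 0.79 and still passed (adjusted p by limma = 0.049), whereas the call ended without DT-061 library 2 (0.062) or vehicle library 1 (0.074) or 3 (0.074). DT-061 library 3 also had the highest contractile sum, 24364 FPKM against 16095 to 18266 in the other DT-061 libraries; its part in the result was not tested.

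AI838599, Gm830, Gm11734, B230312C02Rik and D830026I12Rik, which have no coding gene within 5 kb, were, like Carmn, highest in DT-061 library 3. The lincRNA genes 2810433D01Rik and 4933407E24Rik, which have none either and rose, were highest in DT-061 libraries 2 and 4. AI838599 (chromosome 4, 3242055 to 3258092) had 17.4, 10.5, 43.1 and 15.9 FPKM with DT-061 and 7.51, 6.87, 9.73 and 10.7 with vehicle, a difference in log2 of 1.06 ± 0.38 (SE, n = 4; adjusted p by limma = 0.029). Gm830 (chromosome 4, 95464724 to 95487394) had 2.23, 1.86, 7.53 and 3.14 FPKM with DT-061 and 0.817 to 1.44 with vehicle. DT-061 library 3 was far above the rest in both, and the groups overlapped by 1 library in AI838599 and not in Gm830. Gm11734 rose by 0.90 ± 0.25, B230312C02Rik by 0.89 ± 0.32 and D830026I12Rik by 0.85 ± 0.27 on the log2 scale. Without DT-061 library 3 the changes of AI838599, Gm830 and B230312C02Rik were 0.67, 0.60 and 0.56 and still passed (adjusted p by limma = 0.036, 0.036 and 0.022). Calls ended without vehicle library 1, 2 or 3 in AI838599, B230312C02Rik and Gm830, and also without DT-061 library 1 in AI838599 (0.053) and 4 in Gm830 (0.056).

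Firre, an X-linked transcript known to tether chromosomal regions in the nucleus, was also highest in DT-061 library 3 (ENSMUSG00000085396, chromosome X, 50555744 to 50635321, minus strand). Firre had 16.0, 17.5, 33.0 and 17.4 FPKM with DT-061 and 13.1, 13.2, 13.5 and 11.9 with vehicle, so that every DT-061 library was above every vehicle library. The log2 change was 0.60 ± 0.21 (SE, n = 4; adjusted p by limma = 0.029), and 0.37 without DT-061 library 3 (0.022). Leaving out any single vehicle library ended the call (adjusted p by limma of 0.051 to 0.054).

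**Figure D4:**
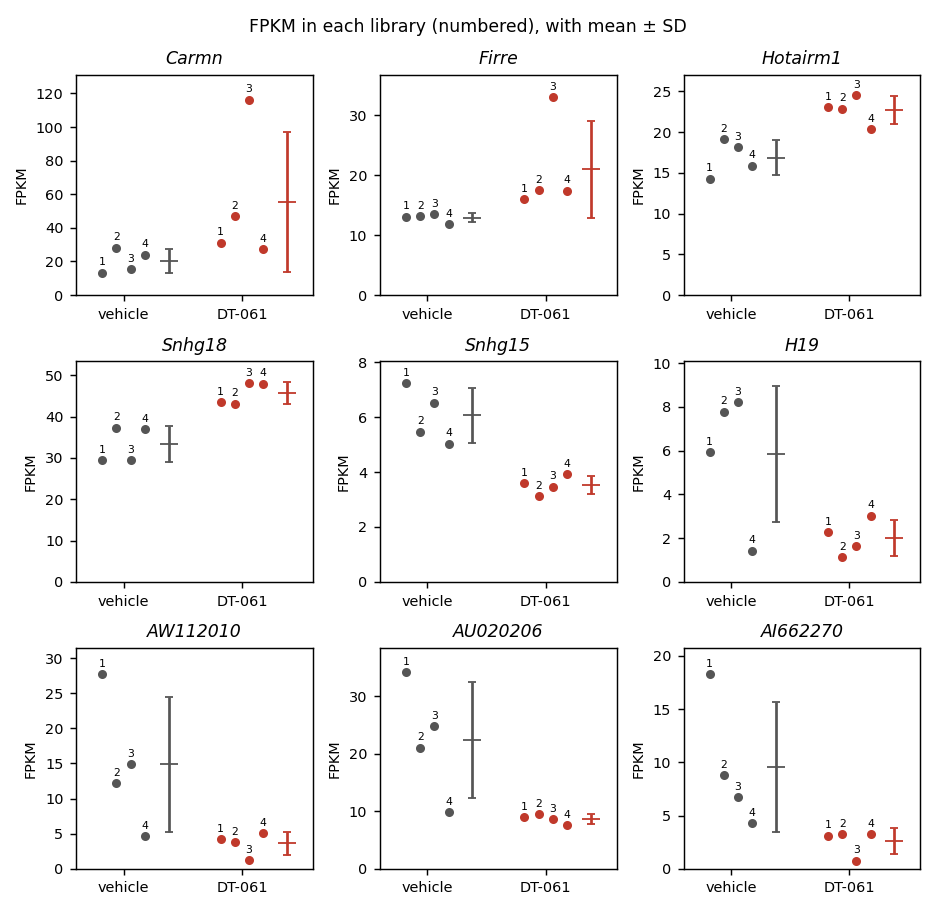
FPKM of 9 long non-coding RNA genes in each vehicle (grey) and DT-061 (red) library, with the library number above each point and the mean ± SD beside each group; every axis starts at 0. Carmn, Firre, Hotairm1 and Snhg18 are highest in DT-061 library 3. The groups overlap in Carmn, H19 and AW112010 and are separate in the other genes. In H19, AW112010, AU020206 and AI662270 vehicle library 4 lies near the DT-061 libraries.

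Both HOXA cluster antisense transcripts in the table rose with little spread. Hotairm1, known from myeloid differentiation (ENSMUSG00000087658, chromosome 6, 52156902 to 52162119, plus strand), had 23.0, 22.9, 24.5 and 20.4 FPKM with DT-061 and 14.3, 19.1, 18.1 and 15.9 with vehicle. Its log2 change was 0.41 ± 0.11 (SE, n = 4; adjusted p by limma = 0.018). Hoxaas2 (chromosome 6, 52165674 to 52169564, plus strand) had 3.84, 3.97, 4.66 and 3.41 against 2.39, 2.75, 2.01 and 2.16 FPKM, a change of 0.58 ± 0.14 (adjusted p by limma = 0.017). In both genes the groups did not overlap, and no left-out library ended the call. In Hoxaas2, 14.97% of the exonic bases also belong to exons of coding genes on the other strand.

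The small nucleolar RNA host genes went in opposite directions. Such genes carry in their introns the small RNAs, here those shown above, that guide chemical modification of other RNAs, and the measured reads are those of the spliced host. Snhg18 (ENSMUSG00000096956, chromosome 15, 32240565 to 32244662, minus strand) had 43.5, 43.1, 48.1 and 48.0 FPKM with DT-061 and 29.5, 37.3, 29.5 and 37.0 with vehicle, a difference in log2 of 0.45 ± 0.11 (SE, n = 4; adjusted p by limma = 0.016). Snhg15 (ENSMUSG00000085156, chromosome 11, 6525591 to 6528760, minus strand) had 3.61, 3.13, 3.47 and 3.93 FPKM with DT-061 and 7.23, 5.47, 6.53 and 5.04 with vehicle, a difference in log2 of -0.63 ± 0.14 (adjusted p by limma = 0.016). The groups did not overlap in either gene, and no left-out library ended either call. Snhg15 turned to 0.07 with the median rescaling and 0.08 with quantile normalization, neither past the threshold (adjusted p by limma = 0.76 and 0.72).

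H19, the imprinted transcript that holds miR-675 (ENSMUSG00000000031, chromosome 7, 142575529 to 142578143, minus strand), fell, with 1 vehicle library as low as the DT-061 libraries. It had 2.28, 1.15, 1.63 and 3.03 FPKM with DT-061 and 5.92, 7.78, 8.21 and 1.43 with vehicle. Vehicle library 4 lay inside the DT-061 range, so the groups overlapped. The means were 2.02 ± 0.818 and 5.83 ± 3.10 FPKM (SD, n = 4), a difference in log2 of -1.05 ± 0.44 (SE; adjusted p by limma = 0.047). Without vehicle library 4 the change was -1.49 (adjusted p by limma = 0.0039). Without any other library, or with a pseudocount of 0.1, the call ended (adjusted p by limma of 0.053 to 0.12, and 0.052), as it did with both scalings, at -0.40 and -0.24.

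On the log2(FPKM + 1) scale, which understates the change of low genes, the largest falls were of 3 genes with no coding gene within 5 kb. As a plain ratio of means, C430002N11Rik (11.9-fold lower), A530040E14Rik (6.63-fold), 9330175E14Rik (4.87-fold) and other low genes fell by more. AW112010, a transcript known to be induced in activated immune cells (ENSMUSG00000075010, chromosome 19, 11047612 to 11055808, minus strand), had 4.25, 3.82, 1.25 and 5.12 FPKM with DT-061 and 27.8, 12.2, 14.9 and 4.60 with vehicle. The mean was 4.12-fold lower, with a difference in log2 of -1.65 ± 0.51 (SE, n = 4; adjusted p by limma = 0.021). Vehicle library 4 fell inside the DT-061 range and the other vehicle libraries were all above it. AI662270 (chromosome 11, 83223576 to 83226604, plus strand), in the cluster of Schlafen genes, had 3.12, 3.23, 0.772 and 3.24 against 18.3, 8.83, 6.73 and 4.31 FPKM, a change of -1.47 ± 0.44 (adjusted p by limma = 0.020). AU020206 (chromosome 7, 75769038 to 75782099, minus strand) had 9.02, 9.46, 8.61 and 7.56 against 34.2, 21.1, 24.8 and 9.82 FPKM, a change of -1.16 ± 0.32 (adjusted p by limma = 0.018). In both the groups did not overlap, though vehicle library 4 was closest to the DT-061 libraries.

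In these 3 genes and in the marker sum of T and NK cells, the same vehicle libraries were at the extremes: vehicle library 1 was highest (sum of 74.9 FPKM) and vehicle library 4 lowest (sum of 6.16 FPKM). Among all 18 genes that fell, vehicle library 1 was the highest vehicle library in 15 and vehicle library 4 the lowest in 15, and DT-061 library 3 was the lowest DT-061 library in 13. The part of the immune markers in these falls was not tested. With the median rescaling, AW112010 and AI662270 still fell, and AU020206 had a change of -0.37 that did not pass (adjusted p by limma = 0.21). With quantile normalization AI662270 did not pass (-0.76, adjusted p by limma = 0.061).

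Other genes that fell were low. Gm15635, on the opposite strand of the organic anion transporter gene Slco2b1, had 0.377, 0.808, 0 and 0.981 FPKM with DT-061 and 3.01, 2.11, 1.65 and 1.79 with vehicle, a difference in log2 of -1.06 ± 0.25 (SE, n = 4; adjusted p by limma = 0.016). C430002N11Rik was listed at 0 in DT-061 library 3, at 0.0419 to 0.246 FPKM in the other DT-061 libraries and at 0.299 to 2.31 with vehicle, a change of -0.85 ± 0.26. By the recovered depth its values rest on 0 to about 79 fragments per library. 1600010M07Rik, on the strand opposite Ipo7, Zfp143 and Wee1, had a change of -0.71 ± 0.19, and Gm15675, beside the complement regulator gene Cd55, one of -0.61 ± 0.17, which turned to 0.30 with quantile normalization, as 1600010M07Rik did to 0.03. A530040E14Rik (-0.93 ± 0.39) was at 4.59 FPKM in vehicle library 1 and 0.351 to 1.16 in the others. Its change was -0.52 without vehicle library 1, and its call ended without any other library but vehicle library 4 (adjusted p by limma of 0.069 to 0.105) and with both scalings.

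Of the 11 genes outside the naming rule, all under 1 FPKM, Gm15527 and Gm20658 rose, 8 fell with log2 changes of -0.70 to -0.31, and Gm4117 did not pass. These 8, named here after their values were seen, were F730043M19Rik, Gm26522, 9330175E14Rik, A330009N23Rik, B930095G15Rik, Plxna4os1, Ptprv and 5830432E09Rik, and all 8 turned to higher with quantile normalization. Gm20658, on the strand opposite the peptide receptor gene Vipr2, was listed at 0 in all 4 vehicle libraries and at 0.250, 0.164, 0.0707 and 0.732 FPKM with DT-061. Those values rest on at most about 30 fragments per library, and its call ended without DT-061 library 1 or any vehicle library (adjusted p by limma of 0.057 to 0.072). Without DT-061 library 4 its change was 0.21 in place of 0.36 and still passed. For 9330175E14Rik the call ended without any library but vehicle library 1 or 4 (0.063 to 0.081), and without vehicle library 1 its change was -0.33 in place of -0.53. The call of Plxna4os1 ended without vehicle library 2 (0.055) and that of Ptprv without DT-061 library 3 (0.054).

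Rises outnumbered falls among genes joined to a coding gene and among those without one within 5 kb. Over all 51 genes, 31 rose and 18 fell. Of the 51, 25 overlap a coding gene on the opposite strand (16 rose and 8 fell), 16 start within 1 kb of a coding gene that runs the other way (12 rose and 4 fell), and 14 have no coding gene within 5 kb (9 rose and 5 fell). No source used here gives the strand setting of the counting, so reads of overlapping genes cannot be told apart. Exonic bases shared with exons of a coding gene were found in 16 of the 51 genes, all on the opposite strand, and made up more than 10% of the exonic length in 7. Of the 16, 12 rose and 4 fell, and of the 35 without shared bases, 19 rose, 14 fell and 2 did not pass.

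Within 50 kb, 22 pairs of a long non-coding gene and a coding gene of the table were found, for 17 of the 51 genes. In 18 pairs both changes had the same sign, 10 higher and 8 lower, and in 4 the long non-coding gene was higher and its neighbour lower. All 8 pairs of overlapping genes had the same sign. The agreement of sign was not tested.

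**Figure D5:**
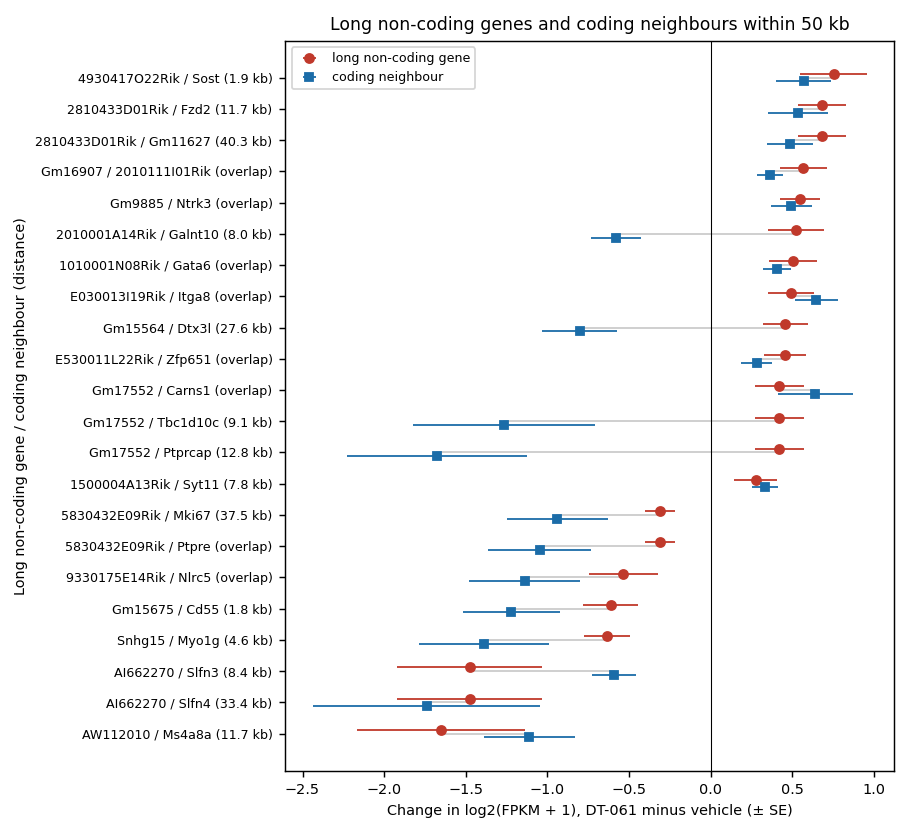
Change in log2(FPKM + 1), DT-061 minus vehicle, with its standard error, of long non-coding genes (red circles) and of their coding neighbours in the table (blue squares) for the 22 pairs within 50 kb. The 2 marks of a pair lie on the same side of 0 in 18 pairs and on opposite sides in 4.

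Pairs that were both higher included genes of the smooth muscle wall. E030013I19Rik (ENSMUSG00000086843, chromosome 2, 12300946 to 12312315, plus strand) overlaps the start of Itga8 on the other strand, the integrin α8 gene of smooth muscle. It had 70.9, 53.2, 47.7 and 68.1 FPKM with DT-061 and 40.2, 42.2, 38.5 and 46.6 with vehicle, and Itga8 had 376, 354, 336 and 345 against 179, 246, 218 and 264. Neither gene's groups overlapped, but DT-061 library 3 was the lowest DT-061 library in both. The log2 changes were 0.49 ± 0.14 and 0.65 ± 0.13 (SE, n = 4; adjusted p by limma = 0.018 and 0.015), and 9.87% of the exonic bases of E030013I19Rik lie in coding exons of the other strand. With quantile normalization E030013I19Rik stayed higher at 0.49 and did not pass (adjusted p by limma = 0.054). 1010001N08Rik (chromosome 18, 10987944 to 11052567, minus strand) overlaps the start of Gata6, a transcription factor gene of smooth muscle, on the other strand. It had 3.19, 3.22, 2.52 and 3.005 against 2.10, 1.603, 2.01 and 1.55 FPKM, a change of 0.50 ± 0.15, and Gata6 rose by 0.41 ± 0.08.

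Gm9885, inside the neurotrophin receptor gene Ntrk3, had 3.72, 3.65, 3.74 and 4.12 FPKM with DT-061 and 2.29, 2.51, 2.33 and 2.02 with vehicle, with no overlap and a small spread. It rose by 0.55 ± 0.12 and Ntrk3 by 0.49 ± 0.13. 4930417O22Rik, 1885 bases from the sclerostin gene Sost, a secreted inhibitor of Wnt signalling, had 4.29, 4.70, 2.91 and 4.25 against 1.36, 2.51, 1.595 and 2.57 FPKM. It rose by 0.75 ± 0.20 and Sost, at 723 ± 59.0 against 495 ± 112 FPKM (SD, n = 4), by 0.57 ± 0.17. 2810433D01Rik rose by 0.68 ± 0.15 and the Wnt receptor gene Fzd2, 11738 bases away, by 0.53 ± 0.18. Gm16907 rose by 0.57 ± 0.14 with 2010111I01Rik at 0.36 ± 0.08, and E530011L22Rik, with 43.4% of its exonic bases in coding exons, by 0.45 ± 0.13 with the zinc finger gene Zfp651 at 0.28 ± 0.10.

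Pairs that were both lower included several genes known from immune cells. AI662270 lies 8422 bases from Slfn3 and 33360 from Slfn4, Schlafen genes of immune cells, which fell by 0.59 ± 0.13 and 1.74 ± 0.70 on the log2 scale. AW112010 lies 11663 bases from the membrane protein gene Ms4a8a, which fell by 1.11 ± 0.28. 9330175E14Rik starts opposite Nlrc5, the transactivator of MHC class I genes, and had 0.206, 0.160, 0.0942 and 0.139 FPKM with DT-061 and 1.56, 0.595, 0.574 and 0.194 with vehicle. Nlrc5 had 1.24, 1.11, 0.684 and 1.46 against 7.25, 3.43, 3.91 and 1.57 FPKM and fell by 1.14 ± 0.34. Vehicle library 1 was highest and vehicle library 4 lowest of the vehicle libraries in both. 5830432E09Rik fell with the phosphatase gene Ptpre, which it overlaps (-0.31 ± 0.09 and -1.05 ± 0.31). The proliferation marker Mki67, 37470 bases from 5830432E09Rik, had a change of -0.94 ± 0.31. Snhg15 lies 4626 bases from Myo1g, a myosin gene of blood cells, which fell by 1.39 ± 0.40, and Gm15675 1836 bases from Cd55, which fell by 1.22 ± 0.30.

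In 4 pairs the directions differed. Gm15564, the most abundant of the 51 genes, had 54.8, 60.3, 81.9 and 57.1 FPKM with DT-061 and 48.3, 42.2, 48.4 and 43.0 with vehicle, and rose by 0.46 ± 0.14. On the opposite strand it overlaps the coding genes Parp9 and Kpna1, which were not analysed here. The ubiquitin ligase gene Dtx3l, 27601 bases away, fell by 0.80 ± 0.23. Gm17552 rose by 0.42 ± 0.15 with the carnosine synthase gene Carns1, which it overlaps (0.64 ± 0.23), whereas Ptprcap, the gene of a CD45-associated protein 12815 bases away, fell by 1.68 ± 0.55, and Tbc1d10c had a change of -1.27 that did not pass (adjusted p by limma = 0.055). Of the exonic bases of Gm17552, 47.1% lie in coding exons of the other strand, and its call ended when DT-061 library 1, vehicle library 1 or vehicle library 3 was left out (0.052 to 0.075). 2010001A14Rik rose by 0.52 ± 0.17 and the glycosyltransferase gene Galnt10, 7985 bases away, fell by 0.58 ± 0.15.

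Other genes that rose start or lie beside coding genes that were not analysed here. 0610009L18Rik, whose start region with the CArG box is shown above, had 11.6, 7.85, 14.9 and 14.4 FPKM with DT-061 and 8.68, 6.04, 7.30 and 6.18 with vehicle. DT-061 library 2 was below vehicle library 1, so the groups overlapped. Its log2 change was 0.69 ± 0.21 (SE, n = 4; adjusted p by limma = 0.020), and 0.53 with both DT-061 library 3 and vehicle library 4 left out, where it did not pass (0.063). Gm13861, on the opposite strand of the caldesmon gene Cald1, had 5.49, 4.78, 5.43 and 5.76 against 3.37, 2.37, 3.47 and 1.86 FPKM and rose by 0.78 ± 0.17. Its values rest on 13 to 42 fragments per library. Gm10687, opposite the start of Mcam, a cell adhesion gene of vascular cells, rose by 0.63 ± 0.21 with overlapping groups, and its call ended when DT-061 library 3, DT-061 library 4 or vehicle library 3 was left out (adjusted p by limma of 0.054 to 0.059) and with both DT-061 library 3 and vehicle library 4 left out (0.089).

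The remaining genes of at least 1 FPKM rose by less or were low. 4933407E24Rik rose by 0.68 ± 0.19, 5031434O11Rik, opposite the methyltransferase gene Setd7, by 0.61 ± 0.19, 4930429F24Rik by 0.56 ± 0.17 and Gm13375 by 0.51 ± 0.15 on the log2 scale. The values of 4933407E24Rik rest on 10 to 38 fragments per library. Gm13375 had overlapping groups and did not pass with both DT-061 library 3 and vehicle library 4 left out (adjusted p by limma = 0.051). Gm12992, opposite the splicing factor gene Srsf4, rose by 0.40 ± 0.13, and E130307A14Rik by 0.35 ± 0.13. The call of 5031434O11Rik ended without vehicle library 2 (0.052) and that of Gm12992 without vehicle library 3 (0.063). That of E130307A14Rik held when DT-061 library 4 was left out and ended when any other was (adjusted p by limma of 0.056 to 0.073), and its change was 0.25 with both libraries left out (0.066). 1500004A13Rik had 2.24, 1.99, 2.44 and 2.12 FPKM with DT-061 and 1.77, 1.66, 1.53 and 1.603 with vehicle, groups that did not overlap, and a change of 0.27 ± 0.13 that did not pass (0.075). It passed without the trend and robust options of limma (0.27, adjusted p = 0.022), with the median rescaling (0.85, 0.0072) and with quantile normalization (1.09, 0.0076). Gm4117, chosen here after its values were seen, passed with quantile normalization (0.51, adjusted p by limma = 0.016).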

How the data were processed

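Poly-A RNA of ascending aorta was sequenced as paired-end reads in 4 DT-061 and 4 vehicle libraries. The deposited values are FPKM made by the authors. The submitters' processing notes name the mm10 build, featureCounts 1.5.0-p3, StringTie 1.3.3b and HISAT2 2.0.5, with no role for each. No source used here gives the total behind the FPKM or how rows were selected, beyond the table's name, which calls them significant. Gene types, coordinates and exonic lengths came from GENCODE M21 (GRCm38, the build of mm10).

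From these values, limma 3.58.1 in R 4.3.3 (trend and robust options, treatment as the only term) was run on log2(FPKM + 1) over 1329 genes, with Benjamini-Hochberg adjustment and a threshold of 0.05. The procedure was tested on simulated data. These had higher levels and far fewer changed genes than the table, so the test does not cover its low genes. Only genes past the threshold are said to have risen or fallen. Means ± SD are over 4 libraries.

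The depth was recovered from FPKM times exonic length, which is a whole multiple of the worth of 1 fragment. With multiples up to 60, 90.9% to 100% of 33 to 65 low values per library came within 0.03 of whole numbers, over genes chosen because they came out whole in other libraries. Fragments came out whole, within 0.1, in all 8 libraries for 14 of the 51 genes, and are approximate for the others.

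Named were members with a mean of at least 1 FPKM, the 8 largest rises and falls, those on the list of known genes and those that hold a microRNA or small nucleolar RNA gene (40 in all). The members and lists were chosen with earlier results of these data known. Alternatives were another pseudocount (0.1), a minimum mean FPKM of 1, limma without those options, 2 scalings, other neighbour windows, a replicate block and leaving out libraries. Leaving out DT-061 library 3 and vehicle library 4 together was added after the data were seen.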

Additional observations from a re-analysis of the deposited data

Results flagged for a closer look

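Libraries that stood apart in a group of 4, with a gap to the next library above Dixon's critical share of the whole range, were found in 9 of the 102 groups of 4 values (51 genes in both treatments). Chance flags about 1 in 20 groups. DT-061 library 3 was that library in 8 of the 9. It was high in 2010001A14Rik (11.9 FPKM), B230312C02Rik (5.22 FPKM), D830026I12Rik (3.94 FPKM) and Firre (33.0 FPKM), all of which rose. It was low in AI662270 (0.772 FPKM), B930095G15Rik (0.0494 FPKM), F730043M19Rik (0.0624 FPKM) and Gm26522 (0.0886 FPKM), all of which fell. The other one was vehicle library 2, high in A330009N23Rik (1.33 FPKM).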

How the results depend on the processing

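With DT-061 library 3 and vehicle library 4 both left out, 27 of the 51 genes rose and 18 fell, beside 334 and 852 of the whole table. In 47 of the 51 genes the groups did not overlap, but leaving out libraries can only keep or raise this count. The share of the whole table without overlap was not counted with libraries left out. Leaving out 1 library at a time gave 21 to 29 rises and 14 to 18 falls among the 51 genes, a median change of 0.37 to 0.44, 42 to 47 genes without overlap, and 254 (without vehicle library 3) to 351 rises and 652 to 881 falls in the whole table. No sign turned, and 35 of the 51 genes had the same call in all 8 such fits. With a minimum mean of 1 FPKM, which leaves 38 of the 51 genes, 29 rose, 7 fell and 30 had no overlap. The median change was 0.51 with it, 0.55 with the pseudocount of 0.1, 1.11 with the median rescaling and 0.87 with quantile normalization. Falls in the whole table went from 864 to 299 with the median rescaling and 210 with quantile normalization, and those of the 51 genes from 18 to 8 and 2. Rises went from 404 to 434 and 394 in the whole table, and from 31 to 32 with either scaling in the 51 genes. Quantile normalization turned 1600010M07Rik (0.029), 5830432E09Rik (0.14), 9330175E14Rik (0.13), A330009N23Rik (0.32), B930095G15Rik (0.13), F730043M19Rik (0.0015), Gm15675 (0.30), Gm26522 (0.072), Plxna4os1 (0.27), Ptprv (0.11) and Snhg15 (0.077) to higher, and the median rescaling Snhg15 (0.069). The cause was not tested. With a replicate block, 18 of the 51 genes rose and 13 fell, and 204 and 630 of the whole table. No source used here says that the replicate numbers pair the samples. Correlations of same-numbered deviations were 0.18, -0.11, -0.05 and -0.47, and 1 of 8 libraries correlated best with its own number. So few values cannot decide whether a number marks a shared litter or day. Pairs of the same sign were 13 of 15 within 10 kb and 27 of 41 within 200 kb, against 18 of 22. Low fragment numbers (under 10 in some library) limit 15 of the 51 genes.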
